A study of Homo sapiens with 6 samples.

Results

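The miR-17~92 cluster gives several mature miRNAs from 1 long transcript, and its main products were measured here in exosomes, which are vesicles shed by cells. The members are the 8 main-arm miRNAs of the MIR17HG cluster and of its paralogs miR-106a and miR-20b, chosen by name and not by their values. Of these 8, 7 have an entry among the 1247 mature miRNAs analysed, and miR-106a-5p was not analysed here. The cells were H1299, a human cell line from a non-small cell lung cancer, and all groups carry the genotype label wild type. The control group stably expressed a control short hairpin RNA, and the shWDR4 group stably expressed one against WDR4, the partner subunit of METTL1 in an enzyme that places 7-methylguanosine on RNA. Cells were grown with 10% fetal bovine serum and then cultured without serum exosomes for 48 hours before the vesicles were collected. Each group had 3 libraries, 6 in all, but the 3 libraries of a group stand joined in 1 column of read counts. No spread between repeats can therefore be given, every value below is the authors' pooled value, and each difference compares the 2 pooled columns without a replicate check. The number of hairpins or clones behind the knockdown was not stated, and WDR4 itself is not a miRNA, so its level was not checked here. Only exosomes were sequenced, and a changed level in the cells and a changed release cannot be told apart.

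The MIR17HG transcript is driven by MYC and E2F factors, and the cluster is known as an oncogene in lymphoma and in lung cancer. A miRNA recognises its targets mainly through its seed, bases 2 to 8 from the 5′ end. The cluster holds 4 seed groups, named here for miR-17 (with miR-20 and miR-106a), miR-18, miR-19 and miR-92. Products of the miR-17 group restrain the cell cycle inhibitor CDKN1A and the E2F factors, and those of the miR-92 group the death factor BCL2L11. The miR-18 group is known for restraining the matrix protein CCN2.

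The mature sequences below, from RefSeq on GRCh38.p14, are shown because the members are compared by these seeds. Each is written 5′ to 3′ with the seed in capitals, and the species prefix is dropped from the names elsewhere.
hsa-miR-17-5p: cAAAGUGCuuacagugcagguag
hsa-miR-20a-5p: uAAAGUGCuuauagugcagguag
hsa-miR-20b-5p: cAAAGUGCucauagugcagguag
hsa-miR-106a-5p: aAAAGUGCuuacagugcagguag
hsa-miR-18a-5p: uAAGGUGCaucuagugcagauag
hsa-miR-19a-3p: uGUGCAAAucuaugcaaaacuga
hsa-miR-19b-3p: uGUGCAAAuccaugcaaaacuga
hsa-miR-92a-3p: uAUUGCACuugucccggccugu
The sequences of the miR-17 group differ from each other by 1 to 3 bases over 23. Counted from 1 at the 5′ end, miR-106a-5p differs from miR-17-5p by C1A alone, miR-20a-5p by C1U and C12U, and miR-20b-5p by U10C and C12U. Likewise miR-19b-3p differs from miR-19a-3p by U11C alone. How reads that match several of these were divided is not given in the sources used here, so the seed group sums are firmer than the values of the single members.

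The 6 hairpins on chromosome 13 lie in the order MIR17, MIR18A, MIR19A, MIR20A, MIR19B1 and MIR92A1 at 91350605 to 91351391 (GRCh38, plus strand), a span of 787 bases. GENCODE release 29 places all 6 within an exon of at least 1 transcript of the non-coding host gene MIR17HG. The paralogous hairpins lie on the minus strand of chromosome X, among them MIR106A at 134170198 to 134170278, MIR19B2 at 134169671 to 134169766 and MIR92A2 at 134169538 to 134169612. Both miR-19b-3p and miR-92a-3p have a hairpin in each cluster with the same mature sequence, so their reads cannot be assigned to a chromosome.

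In total, 1020282 reads were counted in control and 552913 in shWDR4. Each count was divided by its column total and multiplied by 1000000 (CPM). Where nothing was counted, 3 reads were taken as a floor, which is 2.94 CPM for control and 5.43 CPM for shWDR4. The exact 95% interval of a 0 reaches somewhat higher, to 3.62 CPM in control and 6.67 CPM in shWDR4. Intervals are exact 95% intervals and, like these floors, cover counting error only. Of the 1247 entries, 349 had at least 50 counts over both columns and were evaluated, among them 4 of the 7 measured members. The entries miR-3960, miR-6126 and miR-7704 together took 0.774% of the total in control and 37.3% in shWDR4, and leaving them out of the totals raises every log2 fold by 0.66. Among 20 measured markers of epithelial, blood, vascular, liver, muscle and neural cells, the summed level was 14740 CPM in control and 3467 CPM in shWDR4. Of these markers 8 were evaluated, and 6 of the 8 were at least 2-fold lower in shWDR4, against 31.5% of all evaluated entries. Most of the summed level was that of the endothelial miR-126-3p and miR-126-5p, together 10636 CPM in control and 2248 CPM in shWDR4. The liver miR-122-5p had 2139 and 685 CPM. The 7 blood cell markers summed to 698 CPM in control and 271 CPM in shWDR4. Among them the red cell miR-451a had 0 counts in control and 3 in shWDR4. Counts of miR-486-5p were 509 and 100, and those of miR-144-3p were 7 and 2. The epithelial miR-200c-3p had 34 and 7 and miR-141-3p had 11 and 0. Members of the cluster are also known from blood cells, and the part of other cell types or of serum in the values below was not tested.

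Together the main products of the cluster were a small part of the exosomal miRNA, and lower in the shWDR4 column. The 7 measured members summed to 5404 counts in control and 1873 in shWDR4, or 0.5297% (0.516 to 0.544) and 0.339% (0.324 to 0.354) of the columns. This is a 1.56-fold lower share (1.48 to 1.65). The sum joins unlike parts, since miR-92a-3p was at nearly the same CPM in both columns, and without it the other 6 members were 2.61-fold lower (2.40 to 2.84). The sum also depends on the scaling. Without miR-3960, miR-6126 and miR-7704 in the totals its log2 fold was 0.018 in place of -0.64. Ratios between members, given below, do not depend on the scaling.

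The miR-17 group was lower in shWDR4 in each of its 3 measured members. In control miR-20a-5p had 2499 counts, or 2449 CPM (2354 to 2547), and in shWDR4 489 counts, or 884 CPM (808 to 966). The intervals lie well apart, and miR-20a-5p was 2.77-fold lower (2.51 to 3.06). Its near twin miR-17-5p had 382 counts and 374 CPM (338 to 414) in control against 93 counts and 168 CPM (136 to 206), 2.23-fold lower (1.77 to 2.82). The paralog miR-20b-5p from chromosome X had 24 counts in control and 0 in shWDR4. With 3 counts in place of the 0 it was 4.34-fold lower, and the exact interval of its fold began at 3.26-fold lower. Summed, the group went from 2905 to 582 counts, a 2.70-fold lower CPM (2.47 to 2.96). Within the group the ratio of miR-17-5p to miR-20a-5p was 0.153 in control and 0.190 in shWDR4. It differed between the columns by a factor of 1.24 with an interval of 0.961 to 1.60, so that no difference was detectable at this depth.

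The single product of the miR-18 group was lower by a like amount. Counts of miR-18a-5p were 358 in control and 88 in shWDR4, or 351 CPM (315 to 389) and 159 CPM (128 to 196), 2.20-fold lower (1.74 to 2.82). Relative to the miR-17 group its level differed by a factor of 1.23 (0.944 to 1.58), an interval that includes 1. In both columns the intervals of miR-17-5p and miR-18a-5p overlap, so the order of these neighbours in level is not resolved.

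The miR-19 group was almost unseen, although its hairpins lie between those of the abundant members. In control miR-19a-3p had 1 count and miR-19b-3p had 0, and in shWDR4 they had 2 and 6. The ratio for miR-19a-3p was 3.69 with an interval of 0.192 to 218, which includes no difference. With 3 counts in place of the 0 miR-19b-3p was 3.69-fold higher, and the exact interval of its fold began at 2.17. The 1 and 8 summed counts of the group gave a 14.8-fold higher CPM with an interval of 1.98 to 655. Adding these reads changes little, since the group was 0.0185% of the members' counts in control and 0.427% in shWDR4.

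By contrast, miR-92a-3p was close to its control level on the scale of column totals. It had 2140 counts, or 2097 CPM (2010 to 2188), in control and 1195 counts, or 2161 CPM (2040 to 2287), in shWDR4. The intervals overlap and the fold was 1.03 (0.959 to 1.11). Against the miR-17 group it held 0.737 counts per count in control and 2.05 in shWDR4. This ratio, free of the scaling, was 2.79-fold higher in shWDR4 (2.48 to 3.13), and that of miR-92a-3p to miR-18a-5p was 2.27-fold higher (1.77 to 2.93). Both intervals exclude 1. As a share of all members' counts, miR-92a-3p went from 39.6% (38.3 to 40.9) to 63.8% (61.6 to 66.0), while miR-20a-5p went from 46.2% (44.9 to 47.6) to 26.1% (24.1 to 28.2). The leading member thus changed from miR-20a-5p in control to miR-92a-3p in shWDR4.

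**Figure D1:**
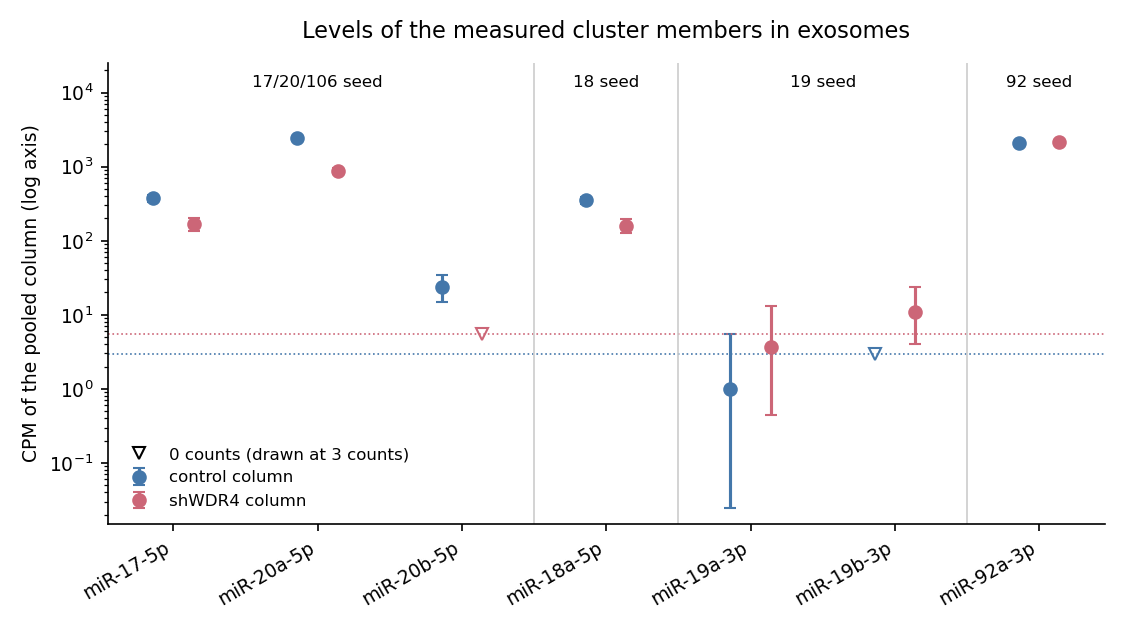
CPM (log axis) of the 7 measured members in the pooled control and shWDR4 columns, grouped by seed, with exact 95% Poisson intervals. Open triangles mark 0 counts, drawn at 3 counts, and dotted lines mark that floor in each column. The points of miR-20a-5p, miR-17-5p and miR-18a-5p are lower in shWDR4, those of miR-92a-3p overlap, and the miR-19 group lies near the floor.

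By the 2-fold size rule, 3 of the 4 evaluated members were lower in shWDR4 and none was higher, against 31.5% of all 349 evaluated entries lower and 26.1% higher. With so few members that share is a description. The median log2 fold was -1.15 over the 4 evaluated members and -0.37 over all evaluated entries, and 66 evaluated entries had a lower log2 fold than miR-20a-5p, the lowest of the 4. The log2 folds of miR-20a-5p, miR-17-5p and miR-18a-5p were below 0 with all 5 other scalings, but only miR-20a-5p passed 2-fold with trimmed mean scaling or without miR-3960. Without miR-3960, miR-6126 and miR-7704 none did. The log2 fold of miR-92a-3p turned from 0.04 to -0.34 with upper-quartile scaling. Of the 7 measured members, the authors' deposited table marks 4 as lower and leaves 3 unmarked, against 10.8% of all entries that the authors' deposited table marks as lower. For miR-20b-5p the authors' deposited table gives a normalized log2 value of 4.70 for control over shWDR4, which rests on 0.5 entered for the 0. The authors' deposited table gives -0.04 for miR-92a-3p.

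Entries outside the cluster that carry the same seeds were compared next. These sequences show how the seed is shared while the rest of the miRNA differs, again with the seed in capitals.
miR-93-5p: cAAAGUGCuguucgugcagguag
miR-106b-5p: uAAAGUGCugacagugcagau
miR-25-3p: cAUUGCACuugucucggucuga
miR-92b-3p: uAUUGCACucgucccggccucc
The first 3 come from the miR-106b~25 cluster on chromosome 7, inside the replication gene MCM7, and miR-92b-3p from chromosome 1. The most abundant entry of the AAAGUGC seed was miR-93-5p, with 52937 counts in control and 21154 in shWDR4, and on the scale of column totals all entries of the seed together were 1.39-fold lower (1.37 to 1.42). Without miR-3960, miR-6126 and miR-7704 in the totals these directions turned, the log2 fold of miR-93-5p from -0.44 to 0.22 and that of the whole seed from -0.48 to 0.18. Counts of miR-106b-5p were 383 and 116, 1.79-fold lower (1.45 to 2.22). Within the seed, miR-20a-5p was 2.04-fold lower relative to miR-93-5p (1.85 to 2.26) and 1.55-fold lower relative to miR-106b-5p (1.22 to 1.95), and miR-17-5p was 1.64-fold lower relative to miR-93-5p (1.30 to 2.08). These 3 intervals exclude 1. That of miR-17-5p relative to miR-106b-5p, 1.24-fold lower (0.904 to 1.71), includes 1, so no difference between these entries was detectable at this depth.

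Within the miR-92 seed the order was another, with miR-92a-3p near its control level and its seed mates lower on the scale of column totals. Counts of miR-25-3p were 690 and 290, 1.29-fold lower (1.12 to 1.48), and those of miR-92b-3p were 3688 and 994, 2.01-fold lower (1.87 to 2.16). Relative to them miR-92a-3p was 1.33-fold (1.14 to 1.56) and 2.07-fold (1.87 to 2.29) higher in shWDR4. All 3 measured entries of the seed summed to a 1.42-fold lower CPM (1.36 to 1.49). Without miR-3960, miR-6126 and miR-7704 in the totals the log2 fold of miR-25-3p turned from -0.37 to 0.30 and that of this sum from -0.51 to 0.15, while miR-92b-3p stayed below 0 at -0.34. Its near neighbour in sequence, miR-92b-3p, differs from miR-92a-3p by U10C, G21C and U22C. Of the other listed paralogs, miR-18b-5p had 1 and 0 counts, and miR-363-3p and miR-32-5p were not analysed here.

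**Figure D2:**
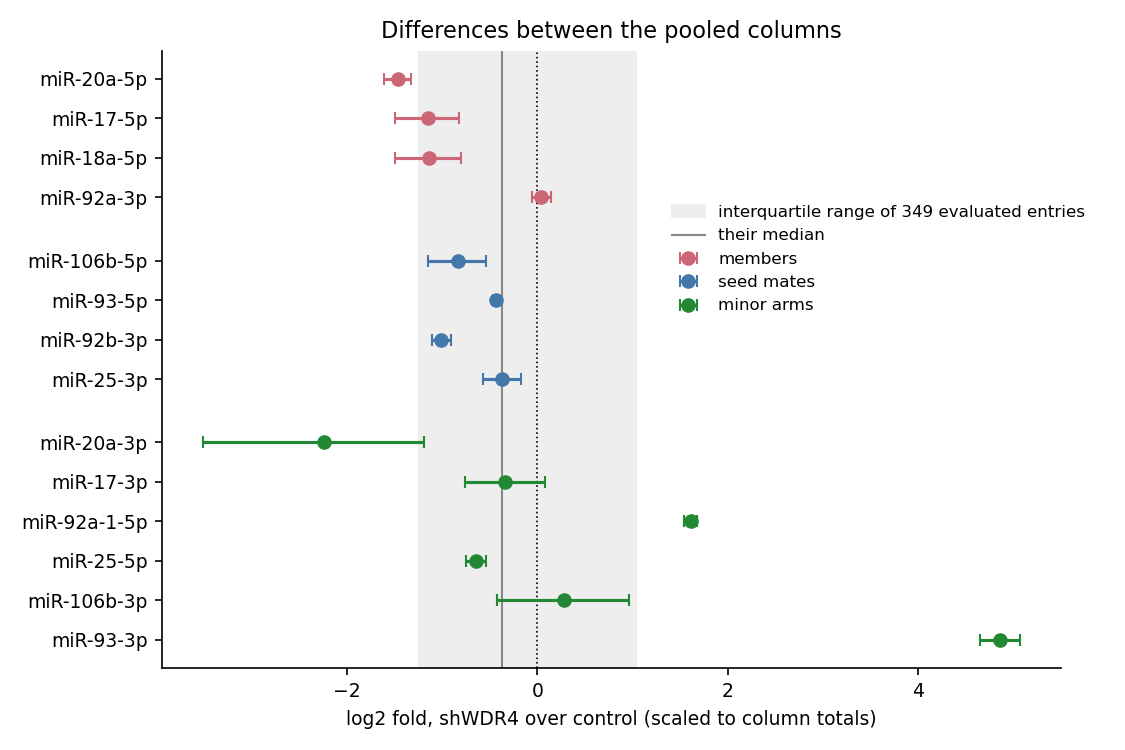
Log2 fold, shWDR4 over control, with exact 95% intervals for the evaluated members, the evaluated entries with the same seeds and the minor arms of both clusters. The grey band spans the interquartile range of the 349 evaluated entries and the solid line is their median of -0.37. The members miR-20a-5p, miR-17-5p and miR-18a-5p lie left of the median, and the minor arms miR-92a-1-5p and miR-93-3p lie right of the band.

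The minor arms of the hairpins, which the choice of members did not use, were unlike their partners in places. Each hairpin is cut into 2 strands, of which the main arm is usually kept. The hairpin MIR92A1 is printed because the ratio of its arms differed between the columns, and MIR20A because both arms were lower in shWDR4. Both are written 5′ to 3′ from RefSeq (GRCh38.p14), with both mature arms in capitals.
MIR92A1: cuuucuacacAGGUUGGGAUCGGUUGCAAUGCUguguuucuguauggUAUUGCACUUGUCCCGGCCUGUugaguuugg
MIR20A: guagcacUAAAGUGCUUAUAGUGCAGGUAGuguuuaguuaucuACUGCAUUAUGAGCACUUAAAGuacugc
The first of these lies on chromosome 13 at 91351314 to 91351391 and the second at 91351065 to 91351135. The minor arm miR-92a-1-5p, the first capital stretch of MIR92A1, had 2976 counts in control and 4925 in shWDR4, or 2917 CPM (2813 to 3024) and 8907 CPM (8660 to 9160). It was 3.05-fold higher (2.92 to 3.20), more abundant than any main product of the cluster in both columns, and the authors' deposited table marks it as higher. The ratio of miR-92a-3p to miR-92a-1-5p was 0.719 in control and 0.243 in shWDR4, 2.96-fold lower (2.72 to 3.23). Since MIR92A2 also yields miR-92a-3p, this ratio is not that of 1 hairpin alone.

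The other measured minor arms of the cluster were scarcer. Counts of miR-17-3p were 163 and 70, a fold of 0.792 (0.590 to 1.05), which includes no difference. The ratio of miR-17-5p to miR-17-3p went from 2.34 to 1.33, 1.76-fold lower (1.21 to 2.57). For miR-20a-3p the counts were 70 and 8, 4.74-fold lower (2.28 to 11.4), and the ratio of miR-20a-5p to it was 35.7 and 61.1, a factor of 1.71 (0.816 to 4.15) that includes 1. Of the 15 listed minor arms, 6 were measured, all 6 were evaluated, 1 was at least 2-fold lower and 2 were at least 2-fold higher, against 31.5% and 26.1% of all evaluated entries. The higher ones were miR-92a-1-5p and miR-93-3p. In the paralogous MCM7 cluster, miR-93-3p had 201 counts in control against 3169 in shWDR4, 29.1-fold higher (25.2 to 33.7). The ratio of miR-93-5p to miR-93-3p was 263 and 6.68.

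Arms were paired by like names, and 52 hairpins so paired had at least 50 counts in each arm. Apart from MIR92A1, arms whose names differ in number, such as miR-128-1-5p and miR-128-3p, were not paired. The share and ranks below hold for the 52 alone. The ratio of the arms differed at least 2-fold between the columns in 19 of them, or 36.5%. The median absolute log2 difference was 0.78. By its size the difference of MIR92A1 came 14th of the 52, that of MIR17 25th and that of MIR20A 27th. The arms of MIR17 and MIR20A thus lie near the middle of these 52 hairpins. Counting both arms, the cluster and its paralogs held 8613 counts in control and 6876 in shWDR4, or 8442 and 12436 CPM, 1.47-fold higher (1.43 to 1.52). The direction turned with the single entry miR-92a-1-5p, since without it the same sum was 1.57-fold lower (1.49 to 1.65). The log2 fold of this joint sum lay between 0.18 and 1.22 over the other scalings.

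**Figure D3:**
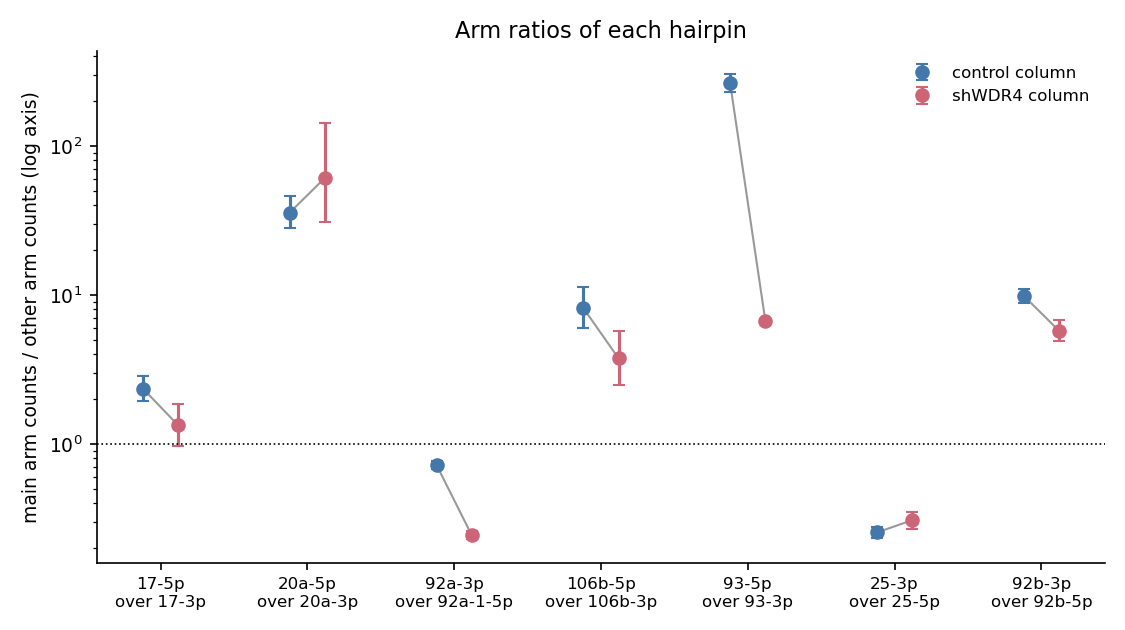
Ratio of main-arm to other-arm counts (log axis) for 7 hairpins in the pooled control and shWDR4 columns, with exact 95% intervals. The ratio for miR-92a-3p lies below 1 in both columns and is lower in shWDR4, that of miR-20a-5p has overlapping intervals, and that of miR-93-5p is 263 in control and 6.68 in shWDR4.

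The members also differ in base composition, a property that moved with the difference between the columns across all miRNAs. A mature sequence was matched by name in RefSeq for 311 of the 349 evaluated entries. The median log2 fold was -1.45 over the 34 entries with under 40% G and C, -1.02 over 67 entries from 40 to under 50%, and -0.44 over 89 entries from 50 to under 60%. Over the 62 entries from 60 to under 70% it was 0.05, and over the 59 entries of 70% and more it was 1.83. The order of the members by G and C content is close to their order by fold. With 39.1% G and C miR-20a-5p had the lowest log2 fold of -1.47, miR-18a-5p (43.5%) and miR-17-5p (47.8%) had -1.14 and -1.15, and miR-92a-3p (54.5%) had 0.04. All 4 lie within the interquartile range of their own composition class. This was not so for miR-92a-1-5p (52.2%), whose log2 fold of 1.61 lies above the upper quartile of its class, 0.78, nor for miR-20a-3p (36.4%), whose -2.25 lies just below the lower quartile, -2.21. Outside the cluster, miR-92b-3p (63.6%) at -1.01 lies below the lower quartile of its class, -0.45, and miR-93-3p (59.1%) at 4.86 lies above its upper quartile, 0.78. Of the evaluated seed mates and listed minor arms, 3 of 4 and 3 of 6 lie within the range of their class. The arms miR-92a-3p and miR-92a-1-5p are close in composition, at 54.5% and 52.2%, and the ratio of the first to the second was 2.96-fold lower in shWDR4. The part of base composition in these results was not tested.

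**Figure D4:**
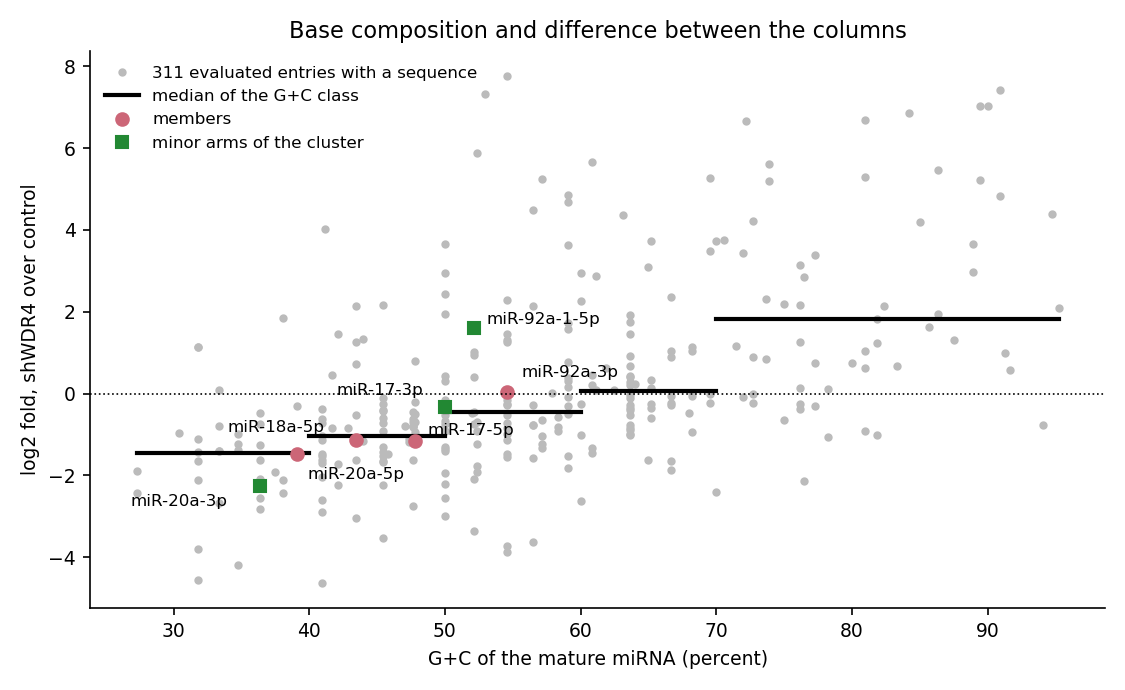
G and C content of the mature miRNA (percent) against the log2 fold, shWDR4 over control, for 311 evaluated entries (grey points), with the median of each composition class (black lines). Of the 4 evaluated members (red), miR-20a-5p, miR-17-5p and miR-18a-5p lie near the medians of their classes. The member miR-92a-3p, at 0.04, lies above its class median of -0.44, and the minor arm miR-92a-1-5p (green square) lies further above that median.

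Of the 87 other evaluated entries with a mean of at least 1000 CPM, those whose log2 fold lay closest to -0.64, the value of the summed members, were miR-25-5p at -0.64, miR-185-5p at -0.66 and miR-29a-3p at -0.61. With 2 pooled columns this likeness rests on 1 difference per entry.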

How the data were processed

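Small RNA libraries from exosomes of 6 cultures were prepared by adaptor ligation, amplification and size selection, per the labels' protocols. The deposited counts were whole-number reads per mature miRNA, with the 3 libraries of a group joined in 1 column per the file headers, and were not normalized by the authors. The submitters' processing notes list FastQC, Trim Galore, Bowtie, SAMtools and edgeR, with no role and no version for any of them. For the build, the miRNA annotation and the use of molecular identifiers nothing was given in the sources used here.

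Per the file headers, the authors also deposited log2 folds (control over shWDR4, with 0 entered as 0.5), a z-score as a score for each entry with no formula, p-values and q-values. The z-score and p-values were not used here. The mark in that table stands, per the file headers, for a Storey q-value under 0.001 with at least a 2-fold difference.

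Counts were scaled to column totals. Fold intervals are exact (Clopper-Pearson), conditional on the summed counts, and ratio-of-ratio intervals are exact conditional intervals (scipy 1.17.1). The fold intervals were tested on data simulated with counting error alone, so that test cannot speak to variation between libraries. No p-value was computed, because pooled columns hold no spread between repeats and the planned edgeR quasi-likelihood test needs values per library. An entry was evaluated at 50 counts over both columns, and a 2-fold difference was the size rule. Alternatives were trimmed mean (edgeR 4.0.16), upper-quartile and median ratio (DESeq2 1.42.0) scaling, totals without the largest gained entries, and other minimum counts. The named entries are all members, their listed minor arms and seed mates, the scaling entries, marker miRNAs and the 3 entries closest in fold. The arm miR-92b-5p was added after its values were seen. Members and lists were chosen with earlier results of these data known.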

Additional observations from a re-analysis of the deposited data

How the results depend on the processing

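Scaling moved the sums by a shift common to all entries. The log2 fold of the summed members, -0.64, became -0.49 with trimmed mean, -0.53 with median ratio and -1.03 with upper-quartile scaling, -0.32 without miR-3960 and 0.018 without miR-3960, miR-6126 and miR-7704. Without miR-92a-3p, the member of highest mean CPM over the columns, it was -1.38. In the same settings the miR-17 group, at -1.44, gave -1.28 (trimmed mean), -1.82 (upper quartile), -1.11 (without miR-3960) and -0.77 (without all 3), and -0.48 with all entries of its seed. The miR-18 group, at -1.14, gave -1.52 (upper quartile) and -0.48 (without all 3). The miR-92 group, at 0.04, gave 0.20, 0.15, -0.34, 0.37 and 0.71 in the order above, and -0.51 with all entries of its seed. All entries of the seed and totals without all 3 together, an alternative chosen after seeing the data, gave 0.18 for the miR-17 seed, the reverse of the group's direction, and 0.15 for the miR-92 seed. The count of 3 members at least 2-fold lower became 1 with trimmed mean scaling and without miR-3960, and 0 without all 3. The 110 evaluated entries at least 2-fold lower became 49 without all 3, 219 with no minimum count and 68 with a minimum of 200. The other 25 values stayed within the counting interval, or for counts within 1.5 times, among them the ratio of seed groups without miR-20b-5p. Pooled columns allow no leaving out of a replicate. No paired analysis was possible because the 3 libraries of each group are joined in 1 column, so no replicate has a value of its own. Depth limits the miR-19 group and miR-20b-5p.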

Other observations

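The hairpin of miR-92b, the closest relative of miR-92a outside the clusters, was also read in both arms. Counts of miR-92b-5p, an arm of 72.7% G and C named after its values were seen, were 374 in control and 173 in shWDR4, a fold of 0.854 (0.709 to 1.02) that includes no difference. The ratio of miR-92b-3p to miR-92b-5p went from 9.86 to 5.75, 1.72-fold lower (1.41 to 2.09). In the miR-25 hairpin the arm miR-25-5p was the more abundant one, with 2721 and 945 counts, and the ratio of miR-25-3p to it went from 0.254 to 0.307, a factor of 1.21 (1.03 to 1.42). For miR-106b the ratio of the main to the minor arm went from 8.15 to 3.74, 2.18-fold lower (1.27 to 3.68). Of the 7 hairpins of these clusters and miR-92b that were compared, 5 had an interval for a lower share of the main arm that excludes 1. Such an interval for a higher share was seen in 1. Among the 5 was the hairpin of miR-92b, whose arm miR-92b-5p was named after its values were seen. A count of such intervals was not made over the 52 hairpins paired by name. Of those, 36.5% differed at least 2-fold either way, which is another measure, so the 5 of 7 is a description. Both miR-92a-3p and miR-25-3p, counted as main arms, were less abundant in both columns than their partner arms.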
